A study of Mus musculus with 8 samples.

Results

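The MYC, MAX and MXD network genes described here are Myc, Mycn, Max, Mxd1, Mxd3, Mxd4, Mxi1 and Mnt, which make up 8 of the 24454 gene rows of the table. They were chosen by measured values: Myc had been seen lower in double positive libraries than in both other populations of the same data. Differences of the members that involve double positive libraries are therefore a description, with no p. Counts of edgeR calls in those comparisons stand only beside the share of all genes called, follow in part from the choice, and nothing is read from them. The comparison of erythroid with endothelial libraries was not used in that choice, and its tests are given.

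RNA was measured in 8 sorted pools of mouse yolk sac cells from E11.5 embryos. The yolk sac surrounds the embryo and is where the first blood and vessels form. All cells came from C57BL/6 embryos of the strain labelled miR144-451+/GFP, so every population carried the green fluorescent protein (GFP) allele at the locus of the microRNAs miR-144 and miR-451, which are made in red cells. No animal without that allele was among the samples, and the cells were neither cultured nor treated. Endothelial pools (3 libraries, replicates 1 to 3) held 25 VE-Cadherin positive, GFP negative cells each. Erythroid pools (3 libraries, replicates 4 to 6) held 25 VE-Cadherin negative, GFP positive cells each. Double positive pools (2 libraries, replicates 7 and 8) held 24 cells each that carried both labels. The labels do not say whether the pools came from separate embryos, so the p-values reflect variation among these 8 pools only, and that variation may be technical.

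MYC and its relative MYCN are transcription factors that drive genes of ribosome production, metabolism and cell division. They bind DNA only as a pair with MAX, a small partner protein, at the sequence CACGTG, called the E-box. The MXD proteins, MXI1 and MNT compete for MAX and for the same sites, where they recruit the SIN3 and histone deacetylase complex and repress. In blood cells MYC is known to fall as red cell precursors mature, while MXD1 and MXI1 are known for their rise in differentiating cells and MXD3 for its presence in dividing ones.

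The E-box itself was looked for in the RefSeq promoters of the members (GRCm38.p6, from 250 bases before to 50 bases after the start), because members of the network can carry the site that the network reads. Promoter entries were matched for 7 of the 8 members, 9 entries in all, and 3 of these 9 held CACGTG, against 2349 of 32851 promoters of the same length (7.15%). CACGTG reads the same on both strands. The 3 windows of 30 bases around the motif are shown 5′ to 3′ on the strand of the gene, with the motif in capitals. A match is a description of these letters and not a bound site.
Max: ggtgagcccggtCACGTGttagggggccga
Mnt: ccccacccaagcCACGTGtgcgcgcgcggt
Mxd4: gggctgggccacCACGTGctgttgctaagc

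The Max window lies at chr12:76962234-76962263 on the minus strand, and the first base of its motif lies 3 bases before the RefSeq start, so the motif spans the start. The Mnt window lies at chr11:74830789-74830818 on the plus strand, with the first base of the motif 123 bases before the RefSeq start. The Mxd4 window lies at chr5:34187912-34187941 on the minus strand, with that base 219 bases before the start. The letters were not found in the promoter windows of Mycn, Mxd1, Mxd3 or Mxi1. Among promoters of 2 fixed lists of genes that MYC is known to activate, 15 of 36 entries of growth and metabolism genes (41.7%) and 5 of 27 entries of ribosome biogenesis genes (18.5%) held CACGTG. None of the 10 promoter entries of proliferation genes did.

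Libraries held 3723128 to 7618444 counts. Sorting labels were checked against 8 endothelial and 10 erythroid markers, whose normalised read counts were summed. The normalised read count (CPM) is a count per 1e6 of library size after scaling by TMM factors (the trimmed mean of M values), so it is not a share of a library. Endothelial markers summed to 2032 to 3182 CPM in endothelial libraries, to 0 in every erythroid library and to 352 and 495 CPM in double positive libraries. Erythroid markers summed to 21.8 to 48.2 CPM in endothelial libraries and to 78836 and 137565 CPM in double positive libraries. They summed to at least 951231 CPM in erythroid libraries, where globin RNA took most of the counts. The 12 markers of visceral endoderm, the secretory epithelium of the yolk sac, summed to 101434 and 98936 CPM in double positive libraries and to at most 159 CPM in any of the others. The 10 macrophage markers summed to 837 to 2625 CPM in endothelial libraries, were all at 0 in the 3 erythroid libraries and summed to 37.0 and 68.8 CPM in double positive libraries, with 8 of 10 at 0 in replicate 7. The part of visceral endoderm or macrophage RNA in the values below was not tested.

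All 8 members passed the filter on low counts, Mycn through endothelial and double positive libraries only. Between erythroid and endothelial libraries, 14.4% of the 12136 genes tested were higher in the erythroid group and 26.6% lower, by edgeR's quasi-likelihood test at a Benjamini-Hochberg adjusted p under 0.05. Of the members, 1 was higher (Mxd3) and 1 lower (Mycn, which no erythroid library helped through the filter, so that its call supports nothing). For double positive against endothelial libraries 14.6% of all genes were higher and 6.92% lower, beside 0 and 1 of the members (Myc). For double positive against erythroid libraries 31.5% were higher and 10.6% lower, beside 1 (Mycn) and 2 (Myc and Mxd3) of the members. In these 2 comparisons the members' counts are not independent of how they were chosen. They share their double positive libraries, and the first of the 3 shares a control population with each of them.

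**Figure D1:**
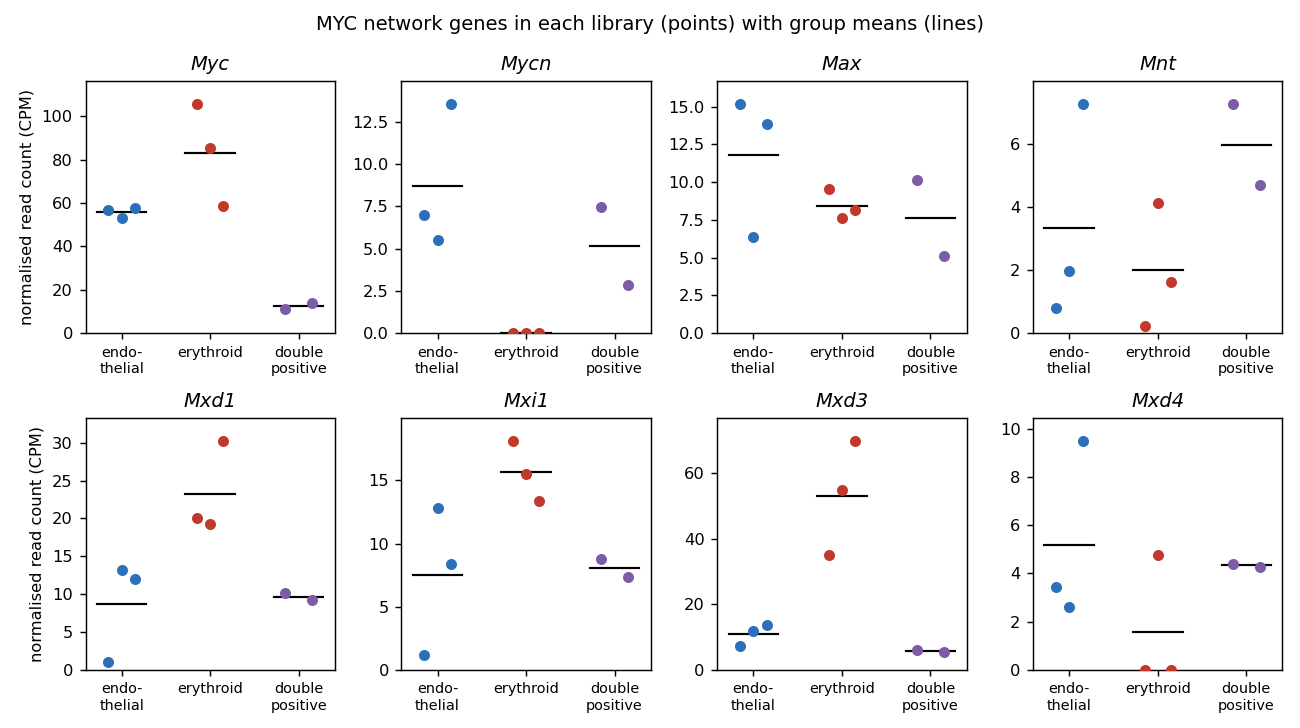
Normalised read counts (CPM, vertical axes from 0, each gene on its own scale) of the 8 members in the 3 endothelial, 3 erythroid and 2 double positive libraries, with points for libraries and lines for group means. Both double positive libraries lie below the 6 others for Myc (11.3 and 13.8 CPM) and Mxd3 (6.11 and 5.50 CPM), and Mycn is at 0 in the 3 erythroid libraries.

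Myc lies on chromosome 15 at 61985391 to 61990374 of GRCm38 (plus strand). It stood at 56.6, 52.9 and 57.8 CPM in endothelial replicates 1 to 3, at 105.7, 85.2 and 58.6 CPM in erythroid replicates 4 to 6 and at 11.3 and 13.8 CPM in double positive replicates 7 and 8. The endothelial libraries lay close together, the erythroid ones spread widely, and both double positive libraries lay below all 6 others. Raw counts were 429, 325 and 358 in endothelial, 454, 269 and 180 in erythroid and 59 and 68 in the double positive libraries, so the low values rest on 127 reads in all. The fitted double positive level was 4.44-fold lower than the endothelial level (log2 difference −2.15, SE 0.31) and 6.63-fold lower than the erythroid level (−2.73, SE 0.32).

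Double positive libraries were the lowest for Myc on either scaling. Myc was chosen for this difference, so refits of the same 8 libraries describe it and are no independent support. On library size alone, the 3 endothelial libraries stood at 96.6, 87.3 and 95.2 CPM, the erythroid ones at 59.6, 48.7 and 34.0 CPM and the double positive ones at 12.7 and 14.1 CPM. On that scale double positive Myc was 6.92-fold below endothelial (−2.79) and 3.53-fold below erythroid libraries (−1.82). Both differences were below 0 under all 16 alternatives. Of all genes tested, 725 (5.97%) had both double positive libraries below the 6 others, and Myc and Mxd3 were the 2 members among them.

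Between erythroid and endothelial libraries the direction of the Myc difference depended on the scaling. With TMM factors Myc was 1.49-fold higher in erythroid libraries, which lay just above the endothelial ones (log2 difference 0.58, SE 0.25), and the difference did not pass the edgeR test (adjusted p = 0.0958). Under library size alone it was lower (−0.97) and passed (adjusted p = 0.00895). Without erythroid replicate 6, the lowest erythroid library, it was higher and passed (0.74, adjusted p = 0.0345), and adjusted p ran up to 0.374 over the alternatives. The median of all genes was −0.36 with TMM and −1.90 with library size alone, a shift of −1.54. Relative to that median Myc stood at 0.94 and 0.93, at the 74th and 70th percentile of all genes. A change of scaling moves all genes by nearly the same amount. These values therefore had to be alike, and they do not settle the direction of the difference.

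Pvt1, a long noncoding RNA gene that starts downstream of Myc on the same strand (chromosome 15, 62037986 to 62378096), did not share the Myc pattern in double positive libraries. It stood at 2.77, 0 and 3.39 CPM in endothelial, 18.9, 16.8 and 5.86 CPM in erythroid and 9.55 and 5.29 CPM in double positive libraries. With TMM, double positive values of Pvt1 lay above every endothelial value and overlapped the erythroid ones. With library size alone they overlapped the endothelial values too. The values rest on 42 endothelial and 76 double positive counts. The double positive difference from endothelial libraries was 1.84 (log2, SE 1.17) and did not pass the edgeR test (adjusted p = 0.326). The erythroid difference from endothelial libraries was 2.74 (log2, SE 1.12) and did not pass the edgeR test (adjusted p = 0.0802). It passed with DESeq2 (adjusted p = 0.04998) and limma-voom (adjusted p = 0.0388), and with no other of the 16 alternatives.

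Mycn, the relative of Myc best known from neural and other embryonic tissues, lies on chromosome 12 at 12936093 to 12941914 (minus strand). It stood at 7.0, 5.53 and 13.6 CPM in endothelial libraries, at 0 in all 3 erythroid libraries and at 7.45 and 2.85 CPM in double positive libraries. Endothelial and double positive libraries overlapped (log2 difference −0.75, SE 0.94). Against a floor of 3 counts over the erythroid group, the erythroid level was at least 30.5-fold lower than the endothelial one, and the double positive level was at least 18.1-fold higher than the erythroid one. Mycn entered the test only through the groups where it was high, so no p is given for this difference. Of all genes tested, 50.8% had erythroid and endothelial libraries that did not overlap, beside 5 of the 8 members (Myc, Mycn, Mxd1, Mxd3 and Mxi1). In bulk pools, fewer cells that hold a transcript and less of it per cell cannot be told apart.

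Mycl, the last MYC relative, had 2 counts in double positive replicate 7 and 0 in the other 7 libraries, and was not tested. Myc thus made up 83.8% to 92.1% of the family's level per exon length in endothelial libraries and 100% in erythroid libraries. In double positive libraries it made up 63.8% and 85.5%.

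Max, the shared partner, lies on chromosome 12 at 76937269 to 76962201 (minus strand). It stood at 15.2, 6.35 and 13.9 CPM in endothelial, 9.54, 7.6 and 8.14 CPM in erythroid and 10.1 and 5.09 CPM in double positive libraries, so the 3 groups overlapped. The log2 difference was −0.48 (SE 0.56) for erythroid against endothelial libraries and did not pass the edgeR test (adjusted p = 0.544). It was −2.03 and passed with library size alone (adjusted p = 0.0142). Double positive differences were −0.63 (SE 0.64) from endothelial and −0.15 (SE 0.63) from erythroid libraries, and the latter turned to 0.78 with library size alone.

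The ratio of Myc to Max counts within a library does not depend on the scaling. It was 3.73, 8.33 and 4.16 in endothelial, 11.1, 11.2 and 7.20 in erythroid and 1.11 and 2.72 in the double positive libraries. Double positive ratios lay below the 6 others, and endothelial and erythroid ratios overlapped. With counts of Max between 24 and 115 per library, each ratio is coarse.

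Mxd3 lies on chromosome 13 at 55325168 to 55329823 (minus strand) and encodes the MXD protein linked to S phase. It stood at 7.13, 11.7 and 13.6 CPM in endothelial, 34.9, 54.8 and 70.0 CPM in erythroid and 6.11 and 5.50 CPM in double positive libraries. The erythroid libraries were all higher than the rest and the double positive ones were the lowest. Mxd3 was 4.92-fold higher in erythroid than in endothelial libraries (log2 difference 2.30, SE 0.40), and higher in 3 of 3 erythroid libraries than in any endothelial one. It passed the edgeR test (adjusted p = 0.00165) and passed under the 15 alternatives other than library size alone, with log2 differences from 2.02 to 2.49 and adjusted p from 7.78e-06 to 0.00779. It was 0.77 with library size alone and did not pass (adjusted p = 0.140). Relative to the median of all genes it was 2.66 with TMM and 2.67 with library size alone. These values had to be alike, because a change of scaling moves all genes by nearly the same amount.

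Double positive Mxd3 differed by −0.89 (SE 0.45) from endothelial and by −3.19 (SE 0.49), or 9.13-fold, from erythroid libraries. These were −1.52 and −2.28 with library size alone. Myc and Mxd3 counts in one library can be set against each other without any scaling. Their ratio was 7.94, 4.51 and 4.26 in endothelial, 3.03, 1.55 and 0.837 in erythroid and 1.84 and 2.52 in the double positive libraries, so the double positive values lay within the erythroid range and below every endothelial one. Exons of Mxd3 share 105 bases (4.43%) with Prelid1 on the opposite strand, and the strand setting of the counting is not given in the sources used here, so those reads cannot be told apart.

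Mxd1 encodes MAD1, the founding antagonist of MYC, and lies on chromosome 6 at 86647042 to 86669161 (minus strand). It stood at 1.06, 13.2 and 11.9 CPM in endothelial, 20.0, 19.3 and 30.3 CPM in erythroid and 10.1 and 9.16 CPM in double positive libraries. Erythroid libraries lay above all others. The erythroid difference from endothelial libraries, 1.41 (log2, SE 0.77), did not pass the edgeR test (adjusted p = 0.174), and with library size alone it was −0.11 (adjusted p = 0.939). Double positive differences were 0.15 (SE 0.84) from endothelial and −1.26 (SE 0.88) from erythroid libraries.

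Mxi1, also called MXD2, lies on chromosome 19 at 53310518 to 53375810 (plus strand). It stood at 1.19, 12.9 and 8.39 CPM in endothelial, 18.2, 15.5 and 13.4 CPM in erythroid and 8.78 and 7.33 CPM in double positive libraries. Its order of groups was that of Mxd1, and endothelial replicate 1 was the lowest library for both genes. The erythroid difference from endothelial libraries, 1.07 (log2, SE 0.75), did not pass the edgeR test (adjusted p = 0.291), and with library size alone it was −0.46 (adjusted p = 0.627). Double positive differences were 0.11 (SE 0.83) from endothelial and −0.96 (SE 0.86) from erythroid libraries. Mxi1 shares 194 exon bases (2.84%) with Gm10197 on the opposite strand.

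Mxd4, whose product represses with MAX in non-dividing cells, lies on chromosome 5 at 34173883 to 34187720 (minus strand). It stood at 3.43, 2.60 and 9.52 CPM in endothelial, 0, 4.75 and 0 CPM in erythroid and 4.39 and 4.27 CPM in double positive libraries. The single erythroid library with reads, replicate 5, held 15 counts and lay within the endothelial range. The erythroid difference from endothelial libraries, −1.72 (log2, SE 1.5), did not pass the edgeR test (adjusted p = 0.405). Without erythroid replicate 5 the erythroid group is at 0 and no erythroid library helps Mxd4 through the filter, so its call there supports nothing. Double positive differences were −0.26 (SE 1.60) from endothelial and 1.46 (SE 1.62) from erythroid libraries. Mxd4 shares 514 exon bases (6.06%) with the antisense gene Gm42846.

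Mnt, a broadly expressed MAX partner that represses MYC targets, lies on chromosome 11 at 74830920 to 74845725 (plus strand). It stood at 0.792, 1.95 and 7.26 CPM in endothelial, 0.233, 4.12 and 1.63 CPM in erythroid and 7.25 and 4.68 CPM in double positive libraries. Both double positive values lay above the erythroid ones and within the endothelial range. The erythroid difference from endothelial libraries, −0.75 (log2, SE 1.16), did not pass the edgeR test (adjusted p = 0.665) and turned to 0.51 without endothelial replicate 3. Double positive differences were 0.84 (SE 1.25) from endothelial and 1.59 (SE 1.27) from erythroid libraries.

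**Figure D2:**
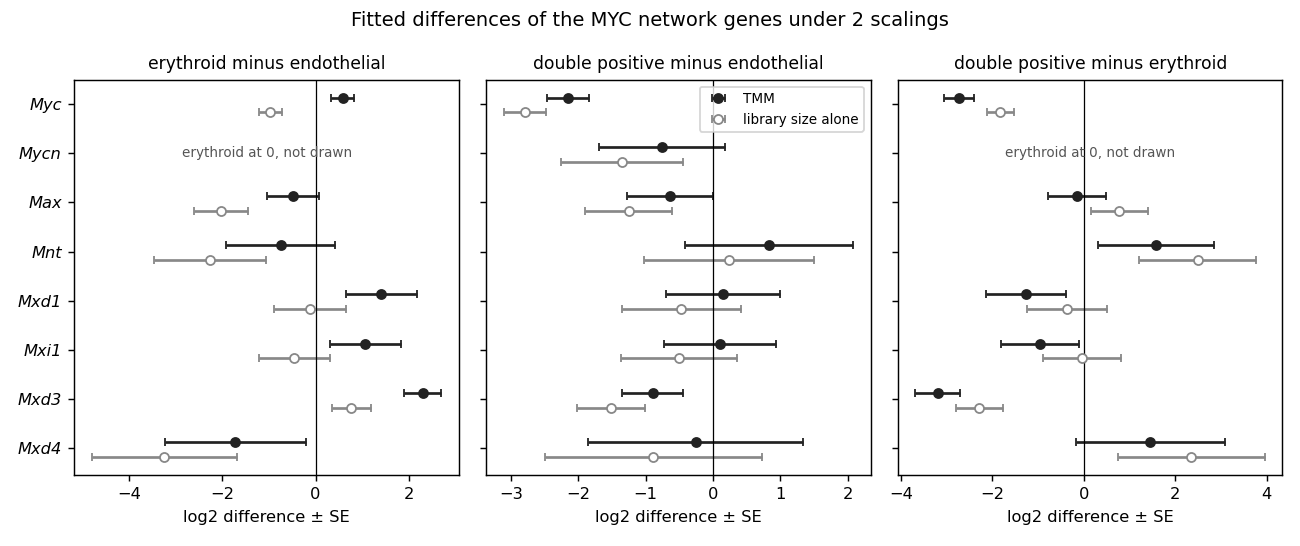
Fitted log2 differences with their standard errors (horizontal axes) of the 8 members in the 3 comparisons, with filled points for TMM scaling and open points for library size alone. Myc in erythroid against endothelial libraries moves from 0.58 to −0.97 between the scalings, while both double positive differences of Myc are below 0 on either, and Mycn is not drawn where erythroid libraries are at 0.

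Across the network, double positive means lay below both other groups for Myc, Max and Mxd3, between them for Mycn, Mxd1, Mxd4 and Mxi1, and above both for Mnt. Among all genes tested these positions held 20.6%, 43.0% and 36.4%. Under library size alone, Mxd1 and Mxi1 joined Myc and Mxd3 below both groups, and Max lay between them. Libraries of the 2 groups did not overlap for 2 of 8 members between double positive and endothelial libraries (57.5% of all genes) and for 6 of 8 between double positive and erythroid libraries (67.5% of all genes).

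Levels of different genes were compared as CPM per kilobase of exons. In endothelial libraries Myc led with 20.5 ± 0.939 (SD, n = 3), followed by Mxd3 with 4.56 ± 1.40, Max with 3.28 ± 1.33 and Mycn with 2.64 ± 1.30, and these last 3 did not differ beyond their spread. Mxd1, Mxi1, Mnt and Mxd4 lay between 0.611 and 1.23. In erythroid libraries Myc (30.6 ± 8.68, SD, n = 3) and Mxd3 (22.5 ± 7.43) lay within their spread of each other, and every other member was at or below 3.28. In double positive libraries Myc stood at 4.62 ± 0.671 (SD, n = 2) and Mxd3 at 2.45 ± 0.183. Next came Max at 2.11 ± 0.988 and Mycn at 1.56 ± 0.986, which lay within their spread of each other and of Mxd3.

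The balance of the network was described as the summed level per exon length of the 5 antagonists (Mxd1, Mxd3, Mxd4, Mxi1 and Mnt) over that of Myc, Mycn and Mycl in the same library. It was 0.170, 0.446 and 0.447 in endothelial, 0.521, 0.943 and 1.68 in erythroid and 1.14 and 1.04 in the double positive libraries. All erythroid and double positive ratios were above all endothelial ones, and double positive ratios lay within the erythroid range. Group means were 0.354 ± 0.159 (SD, n = 3), 1.05 ± 0.584 (n = 3) and 1.09 ± 0.0668 (n = 2).

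Similar ratios stood for different levels. The MYC family summed to 23.0, 21.1 and 25.4 CPM per kilobase in endothelial, 38.9, 31.4 and 21.6 in erythroid and 6.50 and 5.96 in the double positive libraries. The antagonists summed to 3.91, 9.42 and 11.3 in endothelial, 20.3, 29.6 and 36.1 in erythroid and 7.38 and 6.20 in the double positive libraries. With TMM, erythroid libraries thus held the highest antagonist sums, and double positive libraries held antagonist sums within the endothelial range beside the lowest MYC family sums. With library size alone the antagonists summed to 6.67, 15.6 and 18.7 in endothelial, 11.4, 16.9 and 21.0 in erythroid and 8.34 and 6.33 in the double positive libraries, so that endothelial and erythroid sums overlapped and double positive replicate 8 lay below all others. Mxd3 made up 72.7% to 81.8% of the antagonist sum in erythroid, 50.5% to 77.0% in endothelial and 34.9% and 37.4% in double positive libraries.

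**Figure D3:**
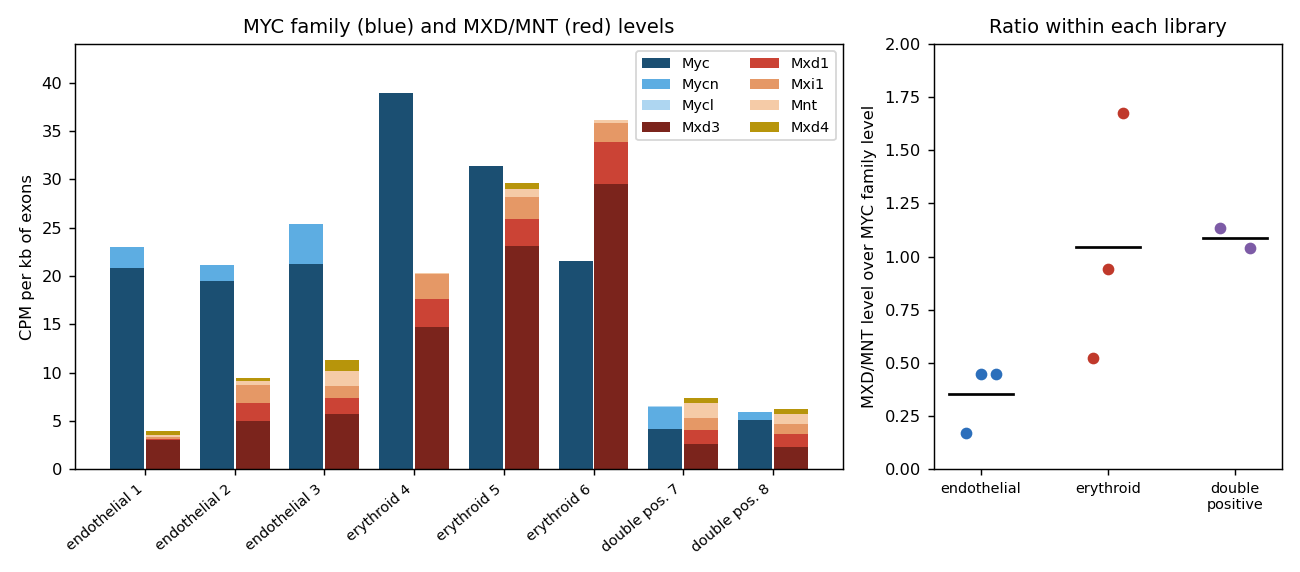
Left, level per exon length (CPM per kilobase, axis from 0) of the MYC family (blue bars) and of the 5 antagonists (red to yellow bars), stacked by gene, in each of the 8 libraries. Right, the ratio of the antagonist sum to the MYC family sum in each library (points) with group means (lines), from 0.170 in endothelial replicate 1 to 1.68 in erythroid replicate 6.

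The genes whose pattern was most like that of Myc were found by Pearson's r of log2(CPM + 1) over the 8 libraries, among 7437 genes with a mean of at least 10 CPM. For Myc these were Tifa (0.986), Itga2b (0.981), Ehbp1l1 (0.974), Nap1l4 (0.972) and Eftud2 (0.971). Itga2b, the integrin chain of platelets and of early blood progenitors, stood at 23.8 CPM in endothelial, 32.9 CPM in erythroid and 3.88 CPM in double positive libraries on average. Tifa, a signalling adaptor, stood at 15, 25.9 and 2.60 CPM. For Mxd3 they were Lims1 (0.989), Fam188a (0.987) and Upf3b (0.985), for Mxd1 Nploc4 (0.980), Ccdc51 (0.977) and Brd7 (0.973), and for Mxi1 Clspn (0.975), Nploc4 (0.972) and Stxbp2 (0.969). The 8 points share their libraries, scaling and sorting groups. The other 4 members had means under 10 CPM and were not compared in this way.

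The wider network was read from lists, beside the medians of all genes tested with TMM, which were −0.36 for erythroid minus endothelial libraries, 0.06 for double positive minus endothelial ones and 0.71 for double positive minus erythroid ones. They became −1.90, −0.57 and 1.61 with library size alone. Directions of list counts changed with that shift, and counts on both scales are given. List counts with library size alone stand beside the shares of all genes tested that edgeR called on that scale. For erythroid minus endothelial libraries these shares were 3.46% higher and 59.9% lower. For double positive minus endothelial ones they were 9.21% higher and 15.7% lower. For double positive minus erythroid ones they were 47.4% higher and 3.91% lower. List counts near these shares are not read as results about the lists. Where edgeR with TMM called 0 genes of a list in a direction, 0 to 2 had an unadjusted p under 0.05 there. DESeq2 and limma-voom called 0 too, apart from these exceptions. Both called 1 to 2 genes with lower double positive than endothelial levels among coactivators, corepressors and turnover genes. Both also called Pvt1, the only gene of its list, as higher in erythroid than in endothelial libraries.

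Of further factors in the wider network, Mga, Mlx, Mlxip and Mlxipl were tested. In erythroid against endothelial libraries 0 rose and 1 fell (0 and 3 with library size alone). Double positive counts were 1 higher and 0 lower against either group (3 and 0 against erythroid libraries with library size alone). The 1 was Mlxipl, which entered the test through double positive libraries only, so its call supports nothing. Mlxipl, also called ChREBP, the glucose-responsive factor of liver and other metabolic tissues, had 0 counts in all 6 endothelial and erythroid libraries and stood at 11.8 ± 0.815 CPM (SD, n = 2) in double positive libraries, where visceral endoderm markers were high. Its relative Mlxip fell in erythroid against endothelial libraries (log2 difference −2.47, edgeR adjusted p = 0.0482), from 39.1 ± 22.1 to 6.95 ± 5.85 CPM (SD, n = 3 each). That call was kept under 10 of 16 alternatives. It was lost with limma-voom (adjusted p = 0.0783) and without endothelial replicate 2 or 3, erythroid replicate 6 or double positive replicate 7 or 8, with adjusted p up to 0.150. Mlx, their shared partner, stood at 44.3 ± 2.59, 44 ± 16.1 and 72 ± 2.45 CPM in the endothelial, erythroid and double positive groups. Mga, which joins MAX in a repressive complex, stood at 37.3 ± 13, 15.6 ± 10.7 and 41.8 ± 0.0593 CPM. It did not pass the edgeR test with TMM in any comparison, but passed as lower in erythroid than in endothelial libraries with library size alone (adjusted p = 0.00214) and with DESeq2 (adjusted p = 0.0299).

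Of 17 coactivators and cofactors of MYC, 2 rose and 1 fell in erythroid against endothelial libraries, with a median log2 difference of −0.07. With library size alone, 0 rose and 14 fell. Wdr5, a chromatin protein that helps hold MYC on its targets, rose by 1.47 with TMM (log2, edgeR adjusted p = 0.00888) but stood at −0.08 with library size alone. It went from 28.1 ± 9.13 to 77.4 ± 24.9 CPM (SD, n = 3 each), and stood at 18 ± 2.95 CPM (n = 2) in double positive libraries. Kat2a, the GCN5 acetyltransferase, fell by 2.32 (adjusted p = 0.00377), from 33 ± 15 to 6.62 ± 1.95 CPM. Of the 17, 0 passed in either direction in double positive against endothelial libraries (0 and 1 with library size alone), and 2 were higher and 1 lower against erythroid libraries (5 and 1).

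Of 12 corepressors that serve the MXD proteins, 2 rose and 1 fell in erythroid against endothelial libraries (median 0.19), and 0 rose and 9 fell with library size alone. Rbbp4, a histone-binding subunit of the SIN3 complex, rose by 1.2 with TMM and stood at −0.34 with library size alone. Suds3, another subunit, rose by 2.64 with TMM and was also higher, by 1.11, with library size alone. Their edgeR adjusted p-values with TMM were 0.00049 and 0.0037. Hdac1, a catalytic subunit, fell by 1.2 (adjusted p = 0.0025), from 156 ± 25.6 to 67.8 ± 16.6 CPM (SD, n = 3 each). Double positive libraries had 2 higher and 0 lower against endothelial ones (1 and 3 with library size alone) and 1 and 1 against erythroid ones (3 and 0). In them Rbbp7, close kin of Rbbp4, stood at 1287 ± 383 CPM (n = 2), against 308 ± 31.1 CPM in endothelial and 363 ± 21.0 CPM in erythroid libraries. Sin3a, the scaffold, stood at 28.4 ± 17.9, 25.7 ± 9.46 and 31.5 ± 1.64 CPM in the 3 groups and did not pass in any comparison with TMM (adjusted p = 0.0167 between erythroid and endothelial libraries with library size alone).

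Of 18 genes of MYC protein turnover and stability 17 were tested, and in erythroid against endothelial libraries 2 rose and 3 fell (median −0.50), and 0 rose and 11 fell with library size alone. Over the 15 other alternatives 1 to 3 rose and 2 to 6 fell. Aurka, a kinase that steadies MYCN protein, rose by 1.39 (edgeR adjusted p = 0.0101) and stood at −0.15 with library size alone. Ppp2r1a, the scaffold of the phosphatase PP2A, fell by 1.29 (adjusted p = 0.00055). Gsk3b, which marks MYC for degradation, fell by 0.72 (adjusted p = 0.008), from 184 ± 12.1 to 112 ± 3.38 CPM (SD, n = 3 each), and stood at 126 ± 30.3 CPM (n = 2) in double positive libraries. Of these genes, 0 were called in double positive against endothelial libraries (2 lower with library size alone), and 1 was higher and 1 lower against erythroid libraries (8 and 0). Fbxw7, the ubiquitin ligase subunit that reads that mark, stood at 11.3 ± 5.22, 7.56 ± 1.44 and 5.73 ± 0.538 CPM and did not pass in any comparison with TMM (adjusted p = 0.0118 between erythroid and endothelial libraries with library size alone).

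Of 26 ribosome biogenesis genes that MYC is known to activate, 11 rose and 2 fell in erythroid against endothelial libraries (median 0.51), while 0 rose and 17 fell with library size alone. Over the 15 other alternatives the number that rose ran from 5 to 11. It was 5 with RLE factors, with only the groups compared and without endothelial replicate 1 or erythroid replicate 4, 7 with DESeq2 and with globin genes and Rn45s removed, and 5 to 8 without any 1 library. In double positive against endothelial libraries 0 were higher and 3 lower (median −0.35), and 0 and 12 with library size alone, with 0 to 7 lower over the other alternatives. Against erythroid libraries 2 were higher and 12 lower (median −0.98), and 6 and 2 with library size alone, with 4 to 13 lower over the others. Dkc1, the pseudouridine synthase dyskerin, stood at 54.3 ± 6.53, 163 ± 20.5 and 21.6 ± 6.55 CPM in the endothelial, erythroid and double positive groups, the order of groups that Myc had with TMM. Nop56, a core protein of small nucleolar particles, stood at 113 ± 7.5, 226 ± 29.2 and 61.5 ± 3.34 CPM.

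With TMM, 15 of the 26 genes (57.7%) had erythroid means above endothelial and these above double positive ones, as had 13.3% of all genes tested. Of the 27 tested growth and metabolism genes that MYC is known to activate, fewer had this order with TMM (7, or 25.9%). With library size alone 2 of the 26 had this order, as had 417 of the 12136 genes tested. Myc itself did not have this order on that scale. Its means there were 93.0, 47.5 and 13.4 CPM in the endothelial, erythroid and double positive groups. Genes with the order of Myc on that scale were not counted. Npm1 and Polr1b were among those of the 26 without the TMM order. Npm1, the nucleolar protein nucleophosmin, fell by 0.74 in erythroid against endothelial libraries (edgeR adjusted p = 0.0068) and stood at 515 ± 8.95, 309 ± 70.4 and 647 ± 62.7 CPM in the endothelial, erythroid and double positive groups. Ncl, or nucleolin, stood at 257 ± 7.58, 267 ± 31.0 and 216 ± 21.6 CPM and did not pass in any comparison with TMM, while with library size alone it passed in all 3. Polr1b, a subunit of RNA polymerase I, stood at 24.2 ± 6.67, 19.7 ± 4.91 and 6.58 ± 0.956 CPM.

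Of 28 growth and metabolism genes that MYC is known to activate 27 were tested, and in erythroid against endothelial libraries 9 rose and 2 fell (median 0.26), while 2 rose and 22 fell with library size alone, and 8 to 9 rose and 2 to 7 fell over the 15 other alternatives. Between double positive and endothelial libraries 5 were higher and 1 lower (median 0.19), and 2 and 6 with library size alone. Against erythroid libraries 5 were higher and 7 lower (median 0.21), and 15 and 5 with library size alone. Tfrc, the transferrin receptor through which red cell precursors take up iron, rose by 3.48 (edgeR adjusted p = 4.4e-06) and stood at 38 ± 7.15, 423 ± 50.4 and 114 ± 19.9 CPM in the endothelial, erythroid and double positive groups. Ldha, the lactate dehydrogenase chain of glycolysis, fell by 2.09 (adjusted p = 4.1e-05) and stood at 1050 ± 79.6, 247 ± 28.2 and 1494 ± 472 CPM. Hspe1, a mitochondrial chaperonin, stood at 97.1 ± 17.1, 66.1 ± 11.3 and 329 ± 58.6 CPM.

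Of 7 genes that MYC is known to repress 6 were tested. In erythroid against endothelial libraries 2 rose and 0 fell (median −0.01), in double positive against endothelial libraries 2 were higher and 0 lower (median 1.34), and against erythroid libraries 1 was higher and 0 lower (median 0.92). Library size alone gave counts of 2 and 3, 1 and 0, and 3 and 0 in these comparisons. The 2 that rose in erythroid libraries were Gadd45a and Ndrg2, at 12.5 ± 3.21 and 8.51 ± 4.59 CPM (SD, n = 3) there. Endothelial libraries held 3 and 0 reads of them, so these genes had entered the test through the groups where they were high. They were also the 2 called higher in double positive than in endothelial libraries. Their calls in both comparisons therefore support nothing. Cdkn1a, the cell cycle inhibitor p21, stood at 14.1 ± 15.9, 3.32 ± 4.49 and 37.2 ± 10.6 CPM, and Cdkn1b, or p27, at 14.2 ± 4.2, 15.3 ± 4.03 and 30.9 ± 0.550 CPM in the endothelial, erythroid and double positive groups.

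Other basic helix-loop-helix leucine zipper factors also read CACGTG, and 7 of 8 were tested. In erythroid against endothelial libraries 0 rose and 1 fell (0 and 4 with library size alone), in double positive against endothelial libraries 0 were higher and 1 lower (0 and 2), and against erythroid libraries 1 and 1 (1 and 0). Tfec, a relative of MITF, stood at 55.2 ± 12.8 CPM (SD, n = 3) in endothelial libraries, at 0 in the 3 erythroid libraries and at 38.2 ± 0.896 CPM (n = 2) in double positive libraries. No erythroid library helped Tfec through the filter, so its calls against erythroid libraries support nothing. They are the 1 that fell and the 1 higher in the counts above. Tfec is also known from macrophages. Their markers summed to 837 to 2625 CPM in endothelial libraries, to 0 in the erythroid ones and to 37.0 and 68.8 CPM in double positive ones. The part of macrophage RNA in the Tfec values was not tested. Usf1, a ubiquitous factor, stood at 27.1 ± 3.74, 16.5 ± 3.63 and 5.25 ± 1.21 CPM in the endothelial, erythroid and double positive groups. With TMM, no gene of this list other than Tfec passed the edgeR test between erythroid and endothelial libraries. With library size alone Usf1, Tfeb and Clock also passed that test (adjusted p = 0.000737, 0.0464 and 0.0435). Usf1 passed with DESeq2 (adjusted p = 0.0424) and Clock with limma-voom (adjusted p = 0.0198).

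Proliferation genes were read beside Mxd3, given its known link to S phase. Of 10, 8 rose and 0 fell in erythroid against endothelial libraries (median 1.69), and 3 rose and 2 fell with library size alone. In double positive against endothelial libraries 0 were higher and 1 lower (median 0.00), and against erythroid libraries 0 were higher and 8 lower (median −1.91). These were 0 and 5, and 1 and 6, with library size alone. Against endothelial libraries 3 were lower with DESeq2, with RLE factors and with globin genes and Rn45s removed. Mki67, the nuclear marker of cycling cells, rose by 2.44 (edgeR adjusted p = 2.4e-06) and stood at 121 ± 5.13, 656 ± 48.6 and 112 ± 6.31 CPM in the endothelial, erythroid and double positive groups. The summed level of the 10 genes was 1028 to 1058 CPM in endothelial, 2850 to 3314 CPM in erythroid and 1048 and 930 CPM in double positive libraries.

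**Figure D4:**
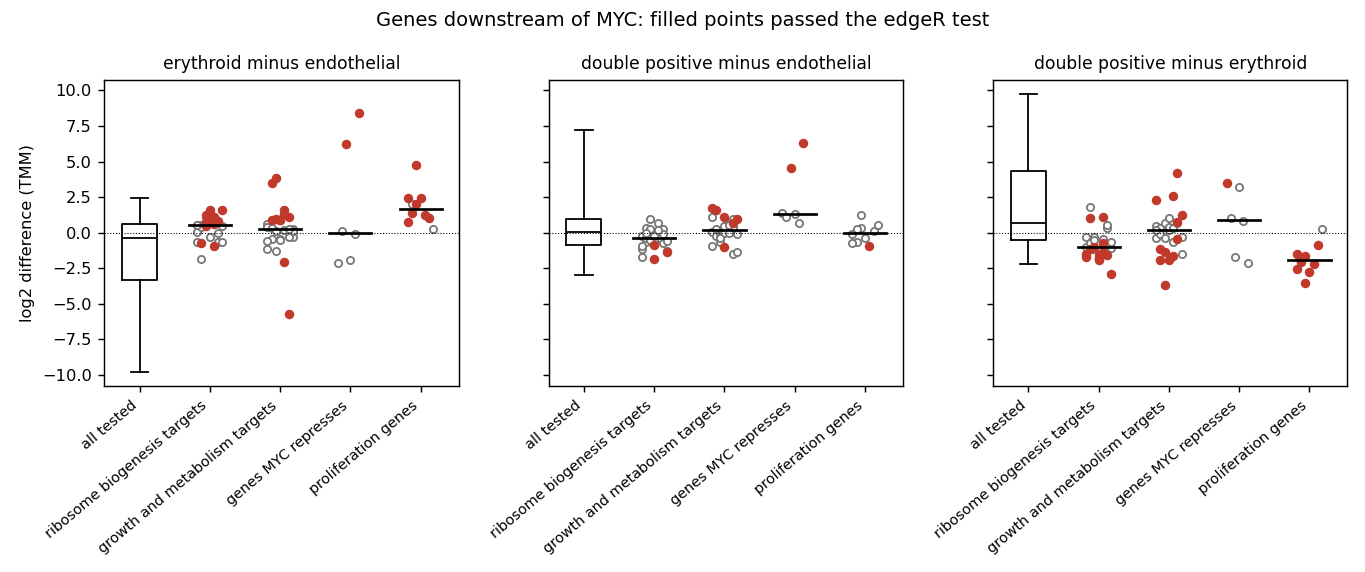
Log2 differences with TMM scaling (vertical axes) of genes in 4 lists and, as boxes with whiskers from the 5th to the 95th percentile, of all 12136 genes tested, in the 3 comparisons. Filled points passed the edgeR test and black lines are list medians, such as 1.69 for proliferation genes in erythroid against endothelial libraries and −1.91 in double positive against erythroid libraries; fitted values of genes with 0 reads in a group, such as Ndrg2, are not bounds.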

How the data were processed

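Sorted pools of cells (8 in all) were made into libraries by Smart-seq2, with 14 PCR cycles and no molecular identifiers, per the labels' protocols. The authors deposited raw read counts for each gene symbol, not scaled between libraries. The submitters' processing notes name FastQC, HTSeq and the build mm10. Aligner, annotation, strand setting and versions: not given in the sources used here. Groups came from the sorting labels. The tools were edgeR 4.0.16, DESeq2 1.42.0 and limma 3.58.1 (R 4.3.3), pandas 2.3.3 and matplotlib 3.10.9 (python 3.11.15).

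Genes were kept by filterByExpr at a minimum count of 10. A robust quasi-likelihood model with TMM factors was fitted to all 8 libraries (common biological coefficient of variation 0.5413), and two-sided p-values were adjusted over all 12136 genes. The fit was tested on simulated data. No 2 libraries held identical counts. The members and the 10 gene lists were chosen with earlier results of these data known. Named were all members, in each list up to 4 genes with the smallest adjusted p per comparison, Pvt1, and the 5 (Myc) or 3 genes most like a member; Sin3a, Fbxw7 and Ncl were named for their known roles, after their values were seen. All 132 listed genes beside members and markers were in the table, 1 under an older symbol. Levels per kilobase used the union of GENCODE M21 exons (GRCm38). The alternatives tried were limma-voom, DESeq2, library size alone, relative log expression factors, removal of globin and Rn45s rows, other filters, only the groups compared, and each library left out. PCR reads without identifiers are not independent molecules.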

Additional observations from a re-analysis of the deposited data

How the results depend on the processing

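Of the members, 1 was higher and 1 lower in erythroid against endothelial libraries. With library size alone these became 0 and 3, and with each library left out in turn 1 to 2 and 1 to 2. The 2 lower included Mxd4 without erythroid replicate 5, which leaves it at 0 in the erythroid group, so nothing is read from that call. In double positive against erythroid libraries the number higher ran from 1 to 2 over the libraries left out, the latter with Mxd4 at 0 in the erythroid group without erythroid replicate 5, from which nothing is read. The Myc difference of erythroid from endothelial libraries was 0.58, reversed to −0.97 with library size alone and ran from 0.32 to 0.74 with a library left out. Double positive Myc against endothelial libraries was −2.15, −2.79 with library size alone and −2.32 to −2.00 with a library left out. Against erythroid libraries it was −2.73 and −1.82 with library size alone. The differences of Mxd1 and Mxi1 between erythroid and endothelial libraries reversed with library size alone, to −0.11 and −0.46, and that of Mnt ran from −1.91 to 0.51 with a library left out, the latter reversed and without endothelial replicate 3. The antagonist to MYC family ratio without division by exon length was 0.549 in endothelial and 1.89 in double positive libraries, and without Mnt 0.883 in double positive libraries. Leaving out each library for this ratio was chosen after seeing the data. With library size alone, erythroid against endothelial calls covered 3.46% (up) and 59.9% (down) of the tested genes. That scaling moves every gene of a globin-rich library together, and the cause of the other changes was not tested. Counts of list genes were within 1.5 times of the main count in 23 cases with library size alone (24 more and 13 fewer) and in 747 with the others (73 more and 80 fewer). Low counts limit Mycn, Mxd4 and Mnt most, and 2 libraries limit the double positive group. No paired analysis was made, because the labels do not say whether pools of different groups came from the same embryos.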
